A study of Mus musculus with 24 samples.

Results

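CLK8, described by the submitters as a disruptor of the CLOCK:BMAL1 dimer, was compared directly with SB431542, an inhibitor of the TGFb receptor kinase, in EMS404 cells that received no TGFb. The comparison uses 6 of the 24 RNA-seq libraries of the series, 3 with CLK8 alone and 3 with SB431542 alone, and asks how the transcripts of cells given the dimer disruptor differ from those of cells whose basal TGFb signalling is inhibited. EMS404 is a line of hepatic stellate cells from C57Bl6 mouse liver, immortalised with SV40 and expressing human TLR4, so each group comes from 1 line and carries both alterations. The 3 vehicle libraries (DMSO by library name, untreated by title) are given beside both compounds, and the groups CLK8+TGFb and SB431542+TGFb, which had compound for 24 h and then compound with 10 ng/mL TGFb for another 24 h, show the same pair of compounds under TGFb. The labels give no compound dose and do not say if cells without TGFb had the later 24 h as well.

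CLOCK and BMAL1 (gene Arntl) bind E-boxes as a dimer and drive their own repressors, the Period and Cryptochrome genes, as well as the REV-ERB receptors (Nr1d1, Nr1d2) and output factors such as Dbp and Tef. REV-ERB in turn represses Arntl and Nfil3. TGFb signals through the receptor kinase TGFBR1, which SB431542 blocks, to SMAD2 and SMAD3, and in stellate cells it is the main inducer of collagen, contractile genes and SMAD feedback genes. BMPs signal through other receptors to SMAD1, SMAD5 and SMAD9 and induce the Id genes.

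Levels are the authors' FPKM, listed for replicates 1 to 3 in that order. Differences are log2(FPKM + 1) values with CLK8 minus SB431542, given ± their standard error, and understate the change of genes expressed near 1 FPKM. Genes were called at an adjusted p under 0.05 in limma. Across the 6 libraries 10915 to 11000 genes reached 1 FPKM, the 10 highest genes took 5.37 to 5.75% of the summed FPKM, and the relative depth estimated from the smallest steps of the values lay between 0.97 and 1.07. Read counts are unknown. Of the stellate cell markers Col1a1, Col1a2, Vim and Dcn were abundant and Hand2 and Lhx2 were present, whereas Reln was listed at 0 in all 6 libraries, Des and Rgs5 were below 0.3 FPKM on average and Lrat was not analysed here. Summed FPKM of the hepatocyte markers analysed was at most 0.15 and of the lymphocyte markers at most 0.11, and endothelial markers summed to 0.94 to 1.27.

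Of 11297 genes tested, 3846 (34%) were called between the 2 compounds, 2327 (20.6%) higher with CLK8 and 1519 (13.4%) lower. These 2 directional shares are the background for the counts between the compounds of each gene list below. Most differences were small. A difference of at least 0.5 on the log2 scale was reached by 267 genes higher and 356 lower, and of at least 2-fold by 42 higher (0.372%) and 72 lower (0.637%). The median over all genes was 0.03 and the median standard error 0.064. The 3 values of each compound did not overlap for 5003 genes (44.3%), and 3596 (31.8%) were both called and without overlap. Against vehicle, CLK8 gave 3425 genes higher (30.3%) and 1534 lower (13.6%), with 59 (0.522%) and 86 (0.761%) at least 2-fold. SB431542 gave 1339 higher (11.9%) and 571 lower (5.05%), with 11 (0.0974%) and 9 (0.0797%) at least 2-fold. The shares called in all were 43.9% and 16.9%. These comparisons share the vehicle libraries with each other and the compound libraries with the direct one, so their values are set side by side below and no overlap between them is read. With quantile normalisation the CLK8 split against vehicle was 2385 higher to 2197 lower and the SB431542 split 937 to 862, whereas the direct split was 2050 to 1854.

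**Figure D1:**
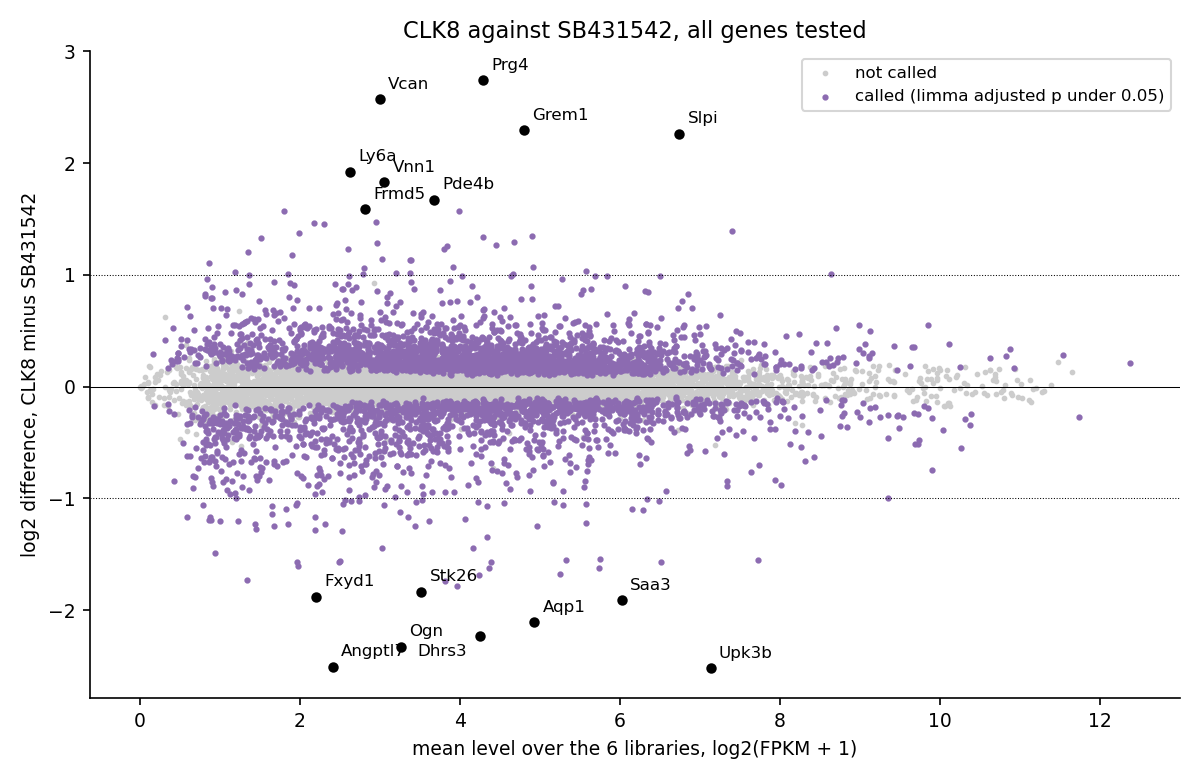
Log2 difference between CLK8 and SB431542 (y axis, log2(FPKM + 1), means of 3 libraries each) against the mean level over the 6 libraries (x axis) for the 11297 genes tested, with called genes in purple, others in grey, and dotted lines at 2-fold. The 8 named genes at each end lie beyond 2-fold, from Prg4 at 2.74 to Upk3b at -2.52, while most called genes lie between the dotted lines.

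The 2 genes with the largest rise over SB431542 encode secreted glycoproteins of the matrix. Prg4, which encodes the lubricant lubricin, was at 44.3, 57.6 and 47.8 FPKM with CLK8 and 5.25, 8.52 and 6.28 with SB431542. Vcan, which encodes the hyaluronan-binding proteoglycan versican, was at 19.2, 18.4 and 18.0 FPKM with CLK8 and 2.46, 2.07 and 2.33 with SB431542. All 3 CLK8 libraries stood far above the SB431542 libraries for both genes, and vehicle lay with SB431542, at 6.03 to 8.58 FPKM for Prg4 and 1.71 to 2.09 for Vcan. The differences were 2.74 ± 0.179 for Prg4 (limma adjusted p = 4.00e-10) and 2.57 ± 0.069 for Vcan (adjusted p = 8.86e-18), and the mean of Vcan was 8.09-fold higher. On GRCm38 Prg4 lies at chr1:150449412-150466165 and Vcan at chr13:89655312-89742509, both on the minus strand. Prg4 overlaps the gene Tpr, and strandedness of the libraries is not given, so its level is the less certain of the 2.

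Grem1, a secreted antagonist of BMPs, was at 69.3, 55.1 and 58.3 FPKM with CLK8 and 13.6, 9.94 and 11.5 with SB431542. Slpi, a secreted inhibitor of serine proteases, was at 216, 255 and 233 FPKM with CLK8 and 41.2, 60.2 and 44.7 with SB431542. Neither gene's groups overlapped, with differences of 2.29 ± 0.155 and 2.26 ± 0.125 (adjusted p = 7.49e-10 and 1.63e-11). Against vehicle Grem1 rose by 1.66 with CLK8 and fell by 0.63 with SB431542 (adjusted p = 0.00703), whereas Slpi rose by 2.12 with CLK8 and differed by -0.14 with SB431542 (adjusted p = 0.502). The other 10 of the 14 largest rises lay between 1.39 and 1.92 and had no overlap between the groups. They were the surface antigen gene Ly6a (1.92), the pantetheinase Vnn1 (1.83), the cAMP phosphodiesterase Pde4b (1.67), Frmd5 (1.59), Nell2 (1.57), the forkhead factor Foxq1 (1.57), the prostaglandin synthase Ptgs2 (1.47), Cth (1.46), which makes cysteine from cystathionine, Tox (1.45) and Slc3a2 (1.39), the heavy chain of several amino acid transporters.

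Among the 14 largest falls were a pair of retinaldehyde-metabolising enzymes, 2 small leucine-rich proteoglycans and 2 genes known from mesothelium. Upk3b, a uroplakin of mesothelium, was at 51.3, 63.4 and 59.2 FPKM with CLK8 and 332, 345 and 330 with SB431542. The values did not overlap, with vehicle between them at 241 to 259 FPKM and nearer to SB431542, and the difference was -2.52 ± 0.144 (adjusted p = 5.75e-11). Osteoglycin (Ogn), a small leucine-rich proteoglycan, was at 3.67, 3.29 and 2.93 FPKM with CLK8 and 20.1, 20.1 and 21.2 with SB431542, a difference of -2.33 ± 0.121 (adjusted p = 2.73e-12). Fibromodulin (Fmod), of the same family, was 3.3-fold lower with CLK8, at 19.0 to 22.4 against 63.8 to 73.1 FPKM. Every CLK8 library was below every SB431542 and vehicle library for Upk3b, Ogn and Fmod. Ogn overlaps Cenpp.

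Dhrs3, which reduces retinaldehyde to retinol, was at 7.17, 8.76 and 7.61 FPKM with CLK8 and 35.5, 44.8 and 41.2 with SB431542. Vehicle stood between the compounds without overlap, at 17.3 to 21.0, so Dhrs3 was lower than vehicle with CLK8 (-1.20) and higher with SB431542 (1.03, adjusted p = 1.91e-06). The direct difference was -2.23 ± 0.119 (adjusted p = 5.24e-12). Aldh1a1, which oxidises retinaldehyde to retinoic acid, was at 29.0, 30.6 and 28.8 FPKM with CLK8, 90.9, 92.1 and 94.5 with SB431542 and 86.8 to 92.8 with vehicle. Here SB431542 and vehicle overlapped and CLK8 alone was low, by -1.62 ± 0.084 (adjusted p = 1.87e-12). The water channel Aqp1 (-2.11) and Apoe (-1.74), a lipoprotein component, had the 3-level order of Dhrs3, as SB431542 raised them over vehicle by 0.97 and 1.10 and with CLK8 they fell by 1.13 and 0.64. The rest of the 14 were Angptl7 (-2.50, lying within Mtor), the acute phase gene Saa3 (-1.91), the sodium pump regulators Fxyd1 (-1.88) and Fxyd3 (-1.72, overlapping Lgi4), the kinase Stk26 (-1.83), Cemip (-1.78), which acts in hyaluronan breakdown, and Lrrn4 (-1.68).

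**Figure D2:**
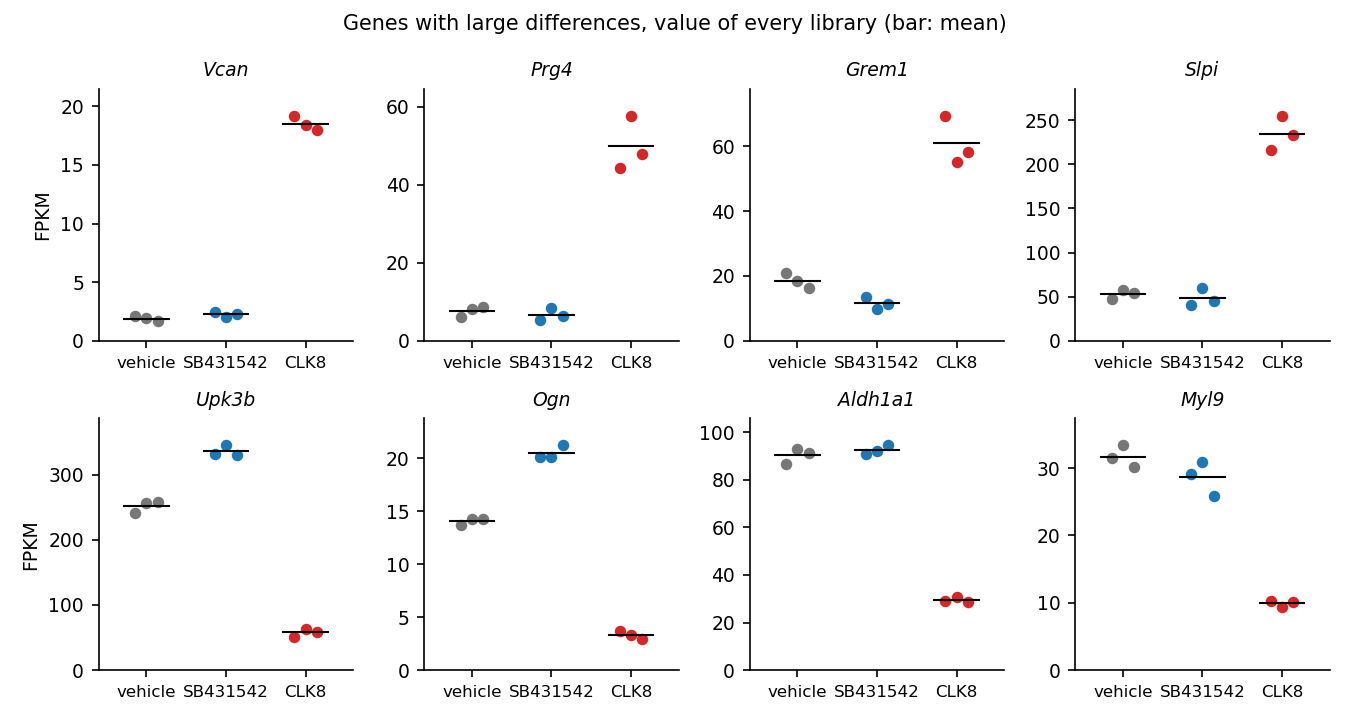
FPKM of 8 genes (y axis, linear from 0) in each of the 3 libraries with vehicle, SB431542 and CLK8 (x axis), with a bar at each mean. The CLK8 libraries stand apart from both other groups in every panel, above them for Vcan, Prg4, Grem1 and Slpi and below them for Upk3b, Ogn, Aldh1a1 and Myl9.

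The core clock differed little between the compounds. Of 14 tested core genes 2 were higher with CLK8, Arntl and Nr1d1 (14.3%, against 20.6% of all genes). Only 1 was lower, Cry2 (7.1%, against 13.4%), and the median difference was 0.04 against 0.03 over all genes. Against vehicle, 6 core genes were higher and 3 lower with CLK8, where 30.3% and 13.6% of all genes were. With SB431542 5 were higher and 3 lower, where 11.9% and 5.05% of all genes were. Arntl, the partner of CLOCK, was at 6.84, 6.37 and 6.56 FPKM with CLK8, 5.52, 4.97 and 5.01 with SB431542 and 6.41, 6.36 and 6.13 with vehicle. The CLK8 libraries overlapped vehicle and lay above SB431542, and the difference of 0.30 ± 0.051 (adjusted p = 7.41e-05) stood beside 0.06 for CLK8 and -0.24 for SB431542 against vehicle (adjusted p = 0.396 and 0.00146). Nr1d1, the REV-ERBalpha repressor, was at 4.75, 3.81 and 4.22 FPKM with CLK8, 3.55, 2.84 and 2.99 with SB431542 and 2.44, 2.21 and 1.73 with vehicle. The 3 groups were ordered without overlap, CLK8 highest, and the difference was 0.35 ± 0.083 (adjusted p = 0.00202). Nr1d1 overlaps Thra.

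For the other dimer partner, Clock, the difference was -0.04 with a 95% interval of -0.24 to 0.15. The repressors Per1 (0.09, interval -0.04 to 0.21), Per2 (-0.13, -0.27 to 0.00), Per3 (-0.12, -0.27 to 0.04) and Cry1 (-0.08, -0.22 to 0.07), and the REV-ERBbeta gene Nr1d2 (0.13, -0.07 to 0.33), were not called either, and their groups overlapped. Bhlhe40 (0.06, -0.33 to 0.44) and Rora (-0.01, -0.23 to 0.22) also overlapped, and Npas2 was below the filter on low values. Bhlhe41, counted below with the outputs of the dimer and not with the core genes, was near 1 FPKM and differed by -0.30 (adjusted p = 0.0216). That call was lost without CLK8 replicate 3 or SB431542 replicate 2 and with quantile normalisation (adjusted p = 0.107, 0.145 and 0.0608). With quantile normalisation Per2 was called at -0.18. The Cry2 groups overlapped at 5.40 to 6.13 FPKM with CLK8 and 6.03 to 7.01 with SB431542, and its difference of -0.18 (adjusted p = 0.0179) lost its call without CLK8 replicate 1 or SB431542 replicate 1 or 2 (adjusted p = 0.104, 0.0927 and 0.0749).

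Of 14 tested genes known as outputs of the CLOCK:BMAL1 dimer, 3 were higher with CLK8 (21.4%, against 20.6% of all genes) and 9 lower (64.3%, against 13.4%), with a median of -0.29. Against vehicle 4 were higher and 3 lower with CLK8 (median 0.05), where 30.3% and 13.6% of all genes were. With SB431542 6 were higher and 1 lower than vehicle (median 0.16), where 11.9% and 5.05% of all genes were. For reference, 14 RefSeq promoter windows (GRCm38.p6, from 250 bases before to 50 after the start) cover 11 of these genes. The E-box CACGTG, a palindrome that reads the same on both strands, is in 6 of these 14 windows. It is in 7.15% of all 32851 windows and in 2 of 17 for the core clock genes. The windows of Ciart, with 3 matches, and of Tef, with 1 match in each of its 2 windows, have the E-box in capitals. They are printed because both genes were lower with CLK8 than with SB431542. Ciart at chr3:95882179-95882478 is read from the minus strand and Tef at chr15:81802423-81802722 from the plus strand, each 5′ to 3′.
Ciart: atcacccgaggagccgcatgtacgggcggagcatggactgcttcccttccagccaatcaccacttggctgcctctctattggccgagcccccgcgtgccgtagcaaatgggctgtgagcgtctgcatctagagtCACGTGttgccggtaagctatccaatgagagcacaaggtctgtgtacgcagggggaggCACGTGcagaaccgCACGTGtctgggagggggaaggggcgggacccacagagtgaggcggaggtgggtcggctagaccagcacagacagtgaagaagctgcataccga
Tef: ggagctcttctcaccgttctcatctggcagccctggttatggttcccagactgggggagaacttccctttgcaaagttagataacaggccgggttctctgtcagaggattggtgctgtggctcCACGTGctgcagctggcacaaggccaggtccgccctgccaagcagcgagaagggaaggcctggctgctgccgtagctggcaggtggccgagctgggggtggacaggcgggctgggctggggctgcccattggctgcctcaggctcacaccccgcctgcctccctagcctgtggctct

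Tef, a PAR bZIP factor, was at 28.2, 28.1 and 29.6 FPKM with CLK8, 34.7, 35.3 and 35.4 with SB431542 and 26.7, 27.8 and 28.6 with vehicle. CLK8 overlapped vehicle and SB431542 alone was high, with a difference of -0.29 ± 0.047 (adjusted p = 4.32e-05). Dbp, of the same factor family, was also highest with SB431542, at 10.8 to 14.1 FPKM, with CLK8 between at 9.03 to 10.46 and vehicle at 7.13 to 8.97. Its difference of -0.34 ± 0.097 (adjusted p = 0.00885) was not called without SB431542 replicate 2 (-0.25, adjusted p = 0.0759), and Dbp overlaps Sphk2. The clock repressor Ciart was at 3.51, 5.57 and 3.34 FPKM with CLK8, 7.49, 7.74 and 5.02 with SB431542 and 9.09 to 9.97 with vehicle. Both compounds were below vehicle and their libraries overlapped each other, so that the difference of -0.60 ± 0.145 (adjusted p = 0.00277) was not called when the spread came from the compared groups alone (adjusted p = 0.0719).

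Klf10 (-0.68 ± 0.091) and Pfkfb3 (-0.60 ± 0.046), a regulator of glycolysis, were lower without overlap between the groups. For Klf10 CLK8 alone was below vehicle (-0.68, against 0.01 for SB431542), whereas for Pfkfb3 the change from vehicle was -0.15 with CLK8 and 0.46 with SB431542. The 3 higher genes were Nfil3, a repressor of the PAR bZIP targets, at 24.8 to 28.3 against 16.1 to 18.6 FPKM (0.62 ± 0.061, adjusted p = 3.15e-08), Hlf, a PAR bZIP activator, at 3.94 to 4.14 against 2.32 to 2.67 (0.56 ± 0.110, adjusted p = 3.64e-04), and Tspan4 (0.45 ± 0.052), which overlaps Chid1. For all 3 the CLK8 libraries were above those of vehicle as well.

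**Figure D3:**
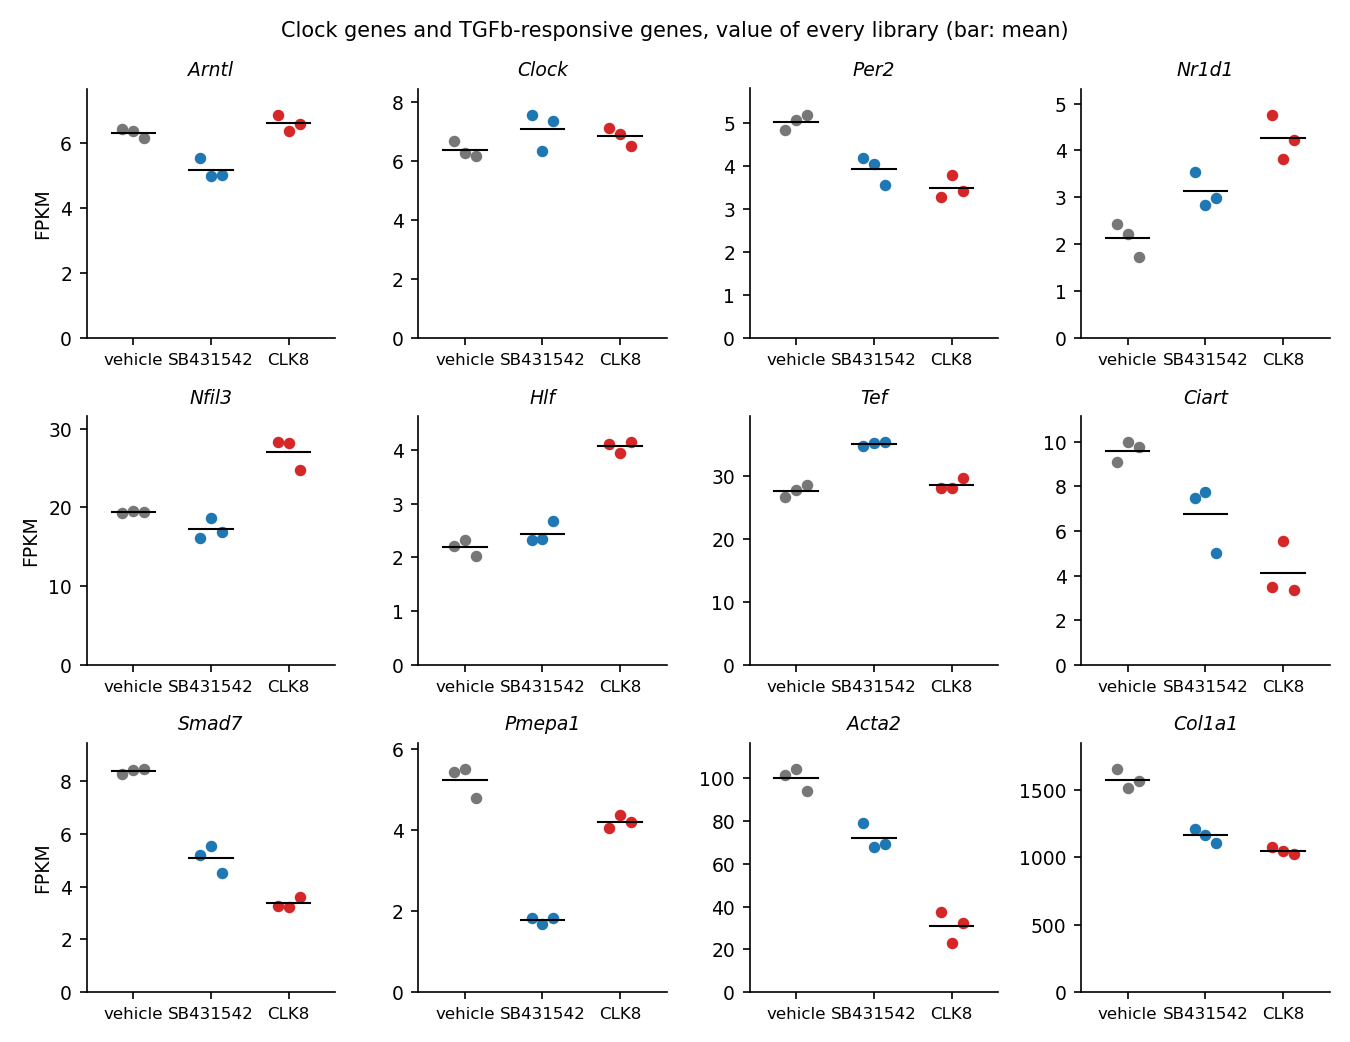
FPKM (y axis, linear from 0) of 8 clock and clock output genes and 4 genes that respond to TGFb, in each of the 3 libraries with vehicle, SB431542 and CLK8 (x axis), with a bar at each mean. Arntl and Tef overlap between CLK8 and vehicle, Nfil3 and Hlf are high with CLK8 alone, Smad7 is below vehicle with both compounds and lowest with CLK8, Pmepa1 is lowest with SB431542, and Acta2 is lowest with CLK8.

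The genes that respond to TGFb through SMAD2 and SMAD3 split between the compounds. Of 20 tested, 7 were higher with CLK8 and 6 lower, with a median of 0.02. Against vehicle 2 were higher and 14 lower with CLK8, where 30.3% and 13.6% of all genes were. With SB431542 0 were higher and 13 lower, where 11.9% and 5.05% of all genes were. Pmepa1, a feedback inhibitor of SMAD signalling, was at 4.05, 4.38 and 4.19 FPKM with CLK8, 1.84, 1.67 and 1.83 with SB431542 and 5.42, 5.50 and 4.80 with vehicle. SB431542 was thus lowest and CLK8 little below vehicle, a difference of 0.91 ± 0.063 (adjusted p = 1.40e-10). The SMAD corepressor Skil had the same order, at 2.87 to 3.35, 1.52 to 1.62 and 4.29 to 4.65 FPKM (0.66 ± 0.088, adjusted p = 2.98e-06), and the corepressor Tgif1 was higher by 0.56.

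Inhibitory Smad7 went the other way, at 3.28, 3.21 and 3.62 FPKM with CLK8, 5.19, 5.54 and 4.51 with SB431542 and 8.27 to 8.45 with vehicle. CLK8 was lowest without overlap (-0.47 ± 0.069, adjusted p = 1.05e-05). Ccn2, a matricellular protein, was at 8.33, 3.66 and 7.99 FPKM with CLK8, 15.0, 10.9 and 13.6 with SB431542 and 32.0 to 41.1 with vehicle, and its difference of -0.95 ± 0.258 (adjusted p = 0.00835) was not called with the spread of the compared groups alone (adjusted p = 0.0713).

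Of 19 tested ligands, receptors, latency proteins and SMADs of the TGFb pathway, 5 were higher with CLK8 (26.3%) and 3 lower (15.8%), shares near the 20.6% and 13.4% over all genes. The ligands divided. Tgfb2 was at 5.87 to 6.38 FPKM with CLK8 and 11.8 to 12.5 with SB431542 (-0.89 ± 0.067) and Tgfb3, which overlaps Ttll5, at 24.7 to 26.9 and 52.6 to 58.9 (-1.06 ± 0.074), whereas Tgfb1 was higher with CLK8 at 23.8 to 27.1 against 18.3 to 18.9 (0.42 ± 0.050). None of the 3 overlapped between the groups. Ltbp1, which holds latent TGFb in the matrix, was at 15.9 to 18.2 FPKM with CLK8, 8.97 to 10.3 with SB431542 and 18.2 to 18.7 with vehicle, a difference of 0.75 ± 0.072 in which SB431542 was the group away from vehicle. The receptors were not called, with 95% intervals of 0.00 to 0.37 for Tgfbr1 and -0.15 to 0.03 for Tgfbr2. Tgfbr1 (0.19) was called when the spread came from the compared groups alone or without the SR9011 groups (adjusted p = 0.0356 and 0.0102).

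All 10 tested genes of the BMP list were called, 2 higher with CLK8 and 8 lower. The 2 that were higher are the secreted BMP antagonists Grem1 and Bmper, the latter at 13.5 to 15.6 against 5.43 to 6.64 FPKM (1.13 ± 0.081, adjusted p = 2.16e-10). Id2, an inhibitor of bHLH factors, was at 24.3, 32.6 and 25.5 FPKM with CLK8 and 46.2, 60.8 and 52.8 with SB431542 (-0.93 ± 0.108, adjusted p = 5.90e-07). Smad6, the inhibitory SMAD of this branch, was at 7.15 to 7.79 against 13.8 to 16.5 (-0.89 ± 0.075), and Smad9, one of its transducers, at 1.87 to 2.10 against 3.89 to 4.26 (-0.77 ± 0.070). Every CLK8 library was below every SB431542 and vehicle library for Id2, Smad6 and Smad9. The counts against vehicle were 2 higher and 7 lower for CLK8, where 30.3% and 13.6% of all genes were. For SB431542 they were 2 higher and 3 lower, where 11.9% and 5.05% of all genes were.

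**Figure D4:**
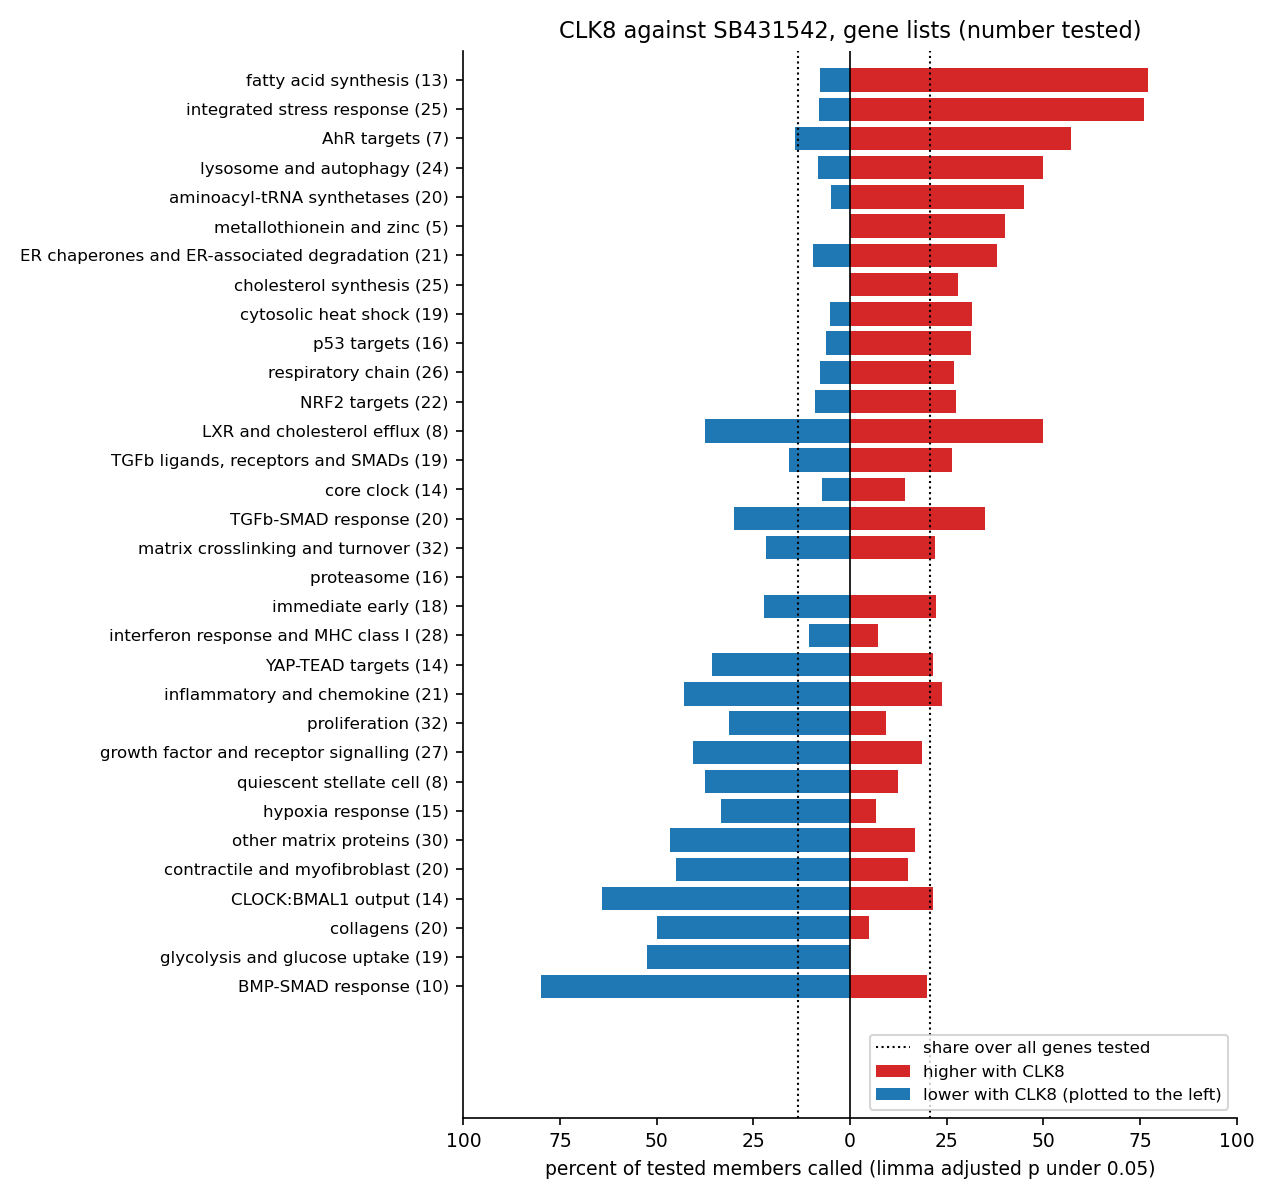
Percent of the tested members of each of 32 gene lists that were called higher with CLK8 than with SB431542 (red, to the right) or lower (blue, to the left), with dotted lines at the shares over all genes tested, 20.6% and 13.4%, and the number tested in brackets. The integrated stress response (19 of 25) and fatty acid synthesis (10 of 13) hold the largest shares of higher genes, and the BMP list (8 of 10) and CLOCK:BMAL1 output (9 of 14) the largest shares of lower genes.

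The genes of type I and type III collagen were not called between the compounds. Col1a1, the main chain of type I collagen, was at 1076, 1043 and 1026 FPKM with CLK8, 1211, 1165 and 1107 with SB431542 and 1511 to 1651 with vehicle. Both compounds were below vehicle, and the difference between them, -0.15 with a 95% interval of -0.32 to 0.02, was not called although the libraries did not overlap. Col1a2 differed by -0.08 (-0.20 to 0.04) and Col3a1 by -0.01 (-0.29 to 0.27). Across 20 tested collagen genes 1 was higher and 10 lower, with a median of -0.20. The called ones included Col5a3 (-0.49), Col18a1 (-0.50, overlapping Slc19a1) and Col27a1 (-0.44). The higher one, Col11a1, was below 0.5 FPKM in all 6 libraries and passed the filter on low values through other groups.

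Of 30 other matrix proteins 5 were higher with CLK8 (16.7%), Vcan and the elastic fibre protein Fbln5 among them, and 14 lower (46.7%), Ogn, Fmod and Postn among them. Fbln5 was at 67.2, 64.4 and 68.6 FPKM with CLK8, 35.8, 36.0 and 36.0 with SB431542 and 60.0 to 60.9 with vehicle. SB431542 was the group away from vehicle, and the difference was 0.87 ± 0.046 (adjusted p = 1.87e-12). Among 32 genes of matrix crosslinking and turnover 7 were higher and 7 lower (21.9% each), the higher share being near the 20.6% over all genes. The prolyl hydroxylase subunit P4ha3 was higher (1.01 ± 0.080), and the crosslinking transglutaminase Tgm2 (-1.54 ± 0.121, overlapping Rprd1b), the gelatinase Mmp9 (-0.99 ± 0.081) and the plasminogen activator Plat (-0.54 ± 0.048) were lower. Timp1, an inhibitor of matrix proteases, was not called (0.06, 95% interval -0.08 to 0.21).

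Of 20 tested contractile and myofibroblast genes 3 were higher with CLK8 (15.0%, against 20.6% of all genes) and 9 lower (45.0%, against 13.4%). Their median was -0.13. Acta2, the smooth muscle actin of myofibroblasts, was at 37.5, 22.9 and 32.4 FPKM with CLK8, 79.2, 67.7 and 69.2 with SB431542 and 93.9 to 104 with vehicle. The groups were ordered without overlap, and the difference was -1.22 ± 0.145 (adjusted p = 1.70e-06). Tagln, an actin-binding protein, was at 13.8, 8.15 and 11.1 FPKM against 42.3, 31.2 and 32.9 (-1.62 ± 0.169, adjusted p = 3.89e-07), and overlaps Pcsk7. The myosin light chain Myl9 was at 10.3, 9.31 and 10.1 FPKM with CLK8, 29.1, 30.9 and 25.9 with SB431542 and 30.2 to 33.4 with vehicle (-1.44 ± 0.078, adjusted p = 2.89e-12). For Myl9 SB431542 differed from vehicle by -0.15 (adjusted p = 0.221) and CLK8 by -1.58. The cadherin Cdh11 (-1.10) and vinculin, Vcl (-0.59, overlapping Ap3m1), were lower as well. CLK8 replicate 2 was the lowest of its group for Acta2, Tagln and Ccn2.

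Markers of some other liver cell types also differed between the compounds. The 8 mesothelial markers summed to 234 to 279 FPKM with CLK8, 657 to 675 with SB431542 and 551 to 569 with vehicle, and of 7 tested 5 were lower with CLK8 (Upk3b, Lrrn4, Upk1b, Wt1 and Gpm6a) and 1 was higher (Msln, at a mean of 10.2 against 5.46). Krt8 and Krt18, keratins of mesothelium, were below 0.5 FPKM on average in both groups. The 13 stellate markers analysed summed to 3983 to 4110 FPKM with CLK8 and 4440 to 4776 with SB431542, with 2 of 9 tested members higher and 2 lower. Cholangiocyte markers summed to 15.7 to 16 against 24.9 to 27.4, of which Spp1 made up most, with 3 of 4 tested members lower. Macrophage markers, of which Cd14 and Cd68 alone were tested and both were higher, summed to 11.3 to 12.8 against 9.11 to 9.58 with Ptprc at or near 0, and portal fibroblast markers to 501 to 536 against 488 to 526. In bulk RNA fewer cells of a type and less RNA per cell cannot be told apart, and the part of such a shift in the other differences was not tested. Of 8 tested genes of quiescent stellate cells, which include the transcription factors Hand2 (0.37), Gata6 (-0.35) and Gata4 (-0.17), 1 was higher and 3 lower. Gata4 was not called without CLK8 replicate 2 or SB431542 replicate 2 (adjusted p = 0.0621 and 0.0885).

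The integrated stress response held one of the largest shares of higher genes. In this pathway kinases that sense amino acid shortage or unfolded protein raise translation of ATF4, which induces amino acid transporters, synthetases and feedback genes. Of 25 tested genes 19 were higher with CLK8 and 2 lower, with a median of 0.40. Side by side, 9 were higher and 2 lower with CLK8 against vehicle (median 0.13), where 30.3% and 13.6% of all genes were. With SB431542 against vehicle 0 were higher and 12 lower (median -0.23), where 11.9% and 5.05% of all genes were.

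An ATF4 element, TGATGNAA on either strand, was in 8 of 27 promoter windows of this list and 5 of 12 of the tRNA synthetase genes, against 3.97% of all windows. The windows of Fgf21 (chr7:45615441-45615740) and Trib3 (chr2:152344011-152344310), both on the minus strand of GRCm38.p6, are printed because these genes were among the most raised of the list. The element is in capitals, in both cases as its reverse complement, and the E-box CACGTG in the Fgf21 window is left in lower case.
Fgf21: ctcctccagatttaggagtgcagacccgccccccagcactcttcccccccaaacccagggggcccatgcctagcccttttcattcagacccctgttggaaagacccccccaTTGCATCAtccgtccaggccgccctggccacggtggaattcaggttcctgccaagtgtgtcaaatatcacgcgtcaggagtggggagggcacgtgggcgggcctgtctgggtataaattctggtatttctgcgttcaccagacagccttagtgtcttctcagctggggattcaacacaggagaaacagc
Trib3: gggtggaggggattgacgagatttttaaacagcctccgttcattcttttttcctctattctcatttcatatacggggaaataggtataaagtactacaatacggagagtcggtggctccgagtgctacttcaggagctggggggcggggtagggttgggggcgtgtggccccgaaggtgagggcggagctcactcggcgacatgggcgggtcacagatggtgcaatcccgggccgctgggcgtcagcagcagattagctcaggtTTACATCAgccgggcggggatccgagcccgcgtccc

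Fgf21, a secreted stress hormone, was at 5.62, 4.48 and 6.12 FPKM with CLK8, 1.60, 1.31 and 1.46 with SB431542 and 4.06, 4.58 and 4.18 with vehicle. CLK8 overlapped vehicle, SB431542 alone was low, and the difference was 1.38 ± 0.095 (adjusted p = 1.24e-10). The feedback pseudokinase Trib3 was at 76.4, 58.8 and 68.4 FPKM with CLK8, 35.8, 30.0 and 31.8 with SB431542 and 43.3 to 47.5 with vehicle. Its groups were ordered without overlap, CLK8 above and SB431542 below vehicle (1.03 ± 0.081, adjusted p = 9.82e-10). Slc3a2 was at 305, 232 and 290 FPKM with CLK8, 112, 96.5 and 103 with SB431542 and 111 to 118 with vehicle, and here CLK8 was the group away from vehicle (1.39 ± 0.077, adjusted p = 3.81e-12). Mitochondrial Aldh1l2, a folate enzyme, was higher by 0.79 ± 0.072 and overlaps D10Wsu102e. CLK8 replicate 2 and SB431542 replicate 2 were the lowest of their groups for Fgf21, Trib3, Slc3a2 and Aldh1l2.

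Of 20 aminoacyl-tRNA synthetase genes 9 were higher and 1 lower (median 0.20), but 2 were higher without CLK8 replicate 1 or without SB431542 replicate 2, 4 without CLK8 replicate 3 and 4 with the spread of the compared groups alone. Eprs (0.31 ± 0.066) and Farsb (0.26 ± 0.060, overlapping Sgpp2) had no overlap between the groups. Among 21 genes of ER chaperones and ER-associated degradation 8 were higher (38.1%, against 20.6% of all genes), led by Herpud1 (0.54 ± 0.057). Only 2 were lower (9.5%, against 13.4%), and the list median was 0.04, near the 0.03 over all genes. Without CLK8 replicate 3 or SB431542 replicate 2, 5 were higher. Of 19 cytosolic heat shock genes 6 were higher (31.6%), including Hsph1 (0.51) and Hspa1b (0.50). The 1 lower gene (5.3%) was Cryab (-0.38, overlapping Hspb2), and the list median was 0.08. Of 16 proteasome genes 0 were called in limma in this fit and in each alternative, and 0 had an unadjusted p under 0.05, with a median of -0.02.

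The aryl hydrocarbon receptor (AhR) is a ligand-activated factor that induces cytochrome P450 genes. Its target Cyp1b1 was at 42.3, 39.1 and 35.7 FPKM with CLK8, 15.2, 15.3 and 15.2 with SB431542 and 15.9 to 17.3 with vehicle, so CLK8 alone was high (1.30 ± 0.054, adjusted p = 6.30e-14). Cyp1a1 was at 1.07 to 1.55 FPKM with CLK8, 0.30 to 0.36 with SB431542 and 0.07 to 0.12 with vehicle (0.81 ± 0.072, adjusted p = 7.17e-09), and Aldh3a1 at 12.3 to 14.7, 5.63 to 7.50 and 2.43 to 2.95 (0.94 ± 0.118, adjusted p = 1.41e-06). These 2 genes rose over vehicle with SB431542 too, by 0.27 and 1.05, and further with CLK8. The receptor gene Ahr fell in the same order, at 6.62 to 7.47, 11.4 to 13.4 and 17.8 to 18.2 FPKM (-0.77 ± 0.095). Of 7 tested genes of the list 4 were higher and 1, Ahr, lower. The AhR element TTGCGTG, searched on both strands, was in 0 of 5 promoter windows of the list and 1.16% of all windows.

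Of 22 targets of the oxidative stress factor NRF2, 6 were higher (27.3%) and 2 lower (9.1%), near the shares over all genes, with a median of 0.02. Nqo1 (0.55 ± 0.075), a quinone reductase that is also on the AhR list, and Gclm (0.20 ± 0.046), for glutathione synthesis, were higher, and Srxn1 (-0.46 ± 0.064) and Gsta4 (-0.50 ± 0.085) lower. The antioxidant element TGACNNNGC was in 8 of 23 windows of these genes and 12.4% of all windows. The metal-binding metallothioneins were at 993, 1241 and 1127 FPKM with CLK8 against 779, 773 and 726 for Mt1 (0.55 ± 0.091), and at 503, 642 and 562 against 280, 303 and 264 for Mt2 (1.0 ± 0.126). Vehicle was below both compounds for both genes, and these were the 2 of 5 list members called.

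Of 24 lysosome and autophagy genes 12 were higher with CLK8 and 2 lower, with a median of 0.17. Gpnmb, a lysosomal glycoprotein, was at 35.1, 30.5 and 33.7 FPKM with CLK8, 13.5, 11.9 and 14.3 with SB431542 and 4.70 to 5.90 with vehicle (1.26 ± 0.108, adjusted p = 4.75e-09). The lysosomal calcium channel Mcoln1 was at 49.9 to 54.1, 33.3 to 36.4 and 25.8 to 27.5 FPKM (0.58 ± 0.047, adjusted p = 1.87e-09). For both, the groups were ordered without overlap, with SB431542 above vehicle and CLK8 above SB431542. The protease Ctsl (0.39) had the same order. The counts against vehicle were 17 higher and 3 lower for CLK8, where 30.3% and 13.6% of all genes were. For SB431542 they were 16 higher and 0 lower, where 11.9% and 5.05% of all genes were.

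Of 13 fatty acid synthesis genes 10 were higher and 1 lower, with a median of 0.23. The desaturase Scd1 was at 145, 160 and 150 FPKM with CLK8, 94.3, 90.8 and 92.9 with SB431542 and 85.2 to 87.6 with vehicle, a difference of 0.70 ± 0.055 (adjusted p = 8.78e-10) without overlap. Scd2 (0.50), Srebf1 (0.30, overlapping Rai1), the factor that drives this pathway, and Fads1 (0.26) were also higher. Of 25 cholesterol synthesis and uptake genes 7 were higher and 0 lower, among them Tm7sf2 (0.58, overlapping Vps51) and Ebp (0.46), a share of higher genes (28.0%) near the 20.6% over all genes. The sterol element TCACNCCAC was in 1 of 20 windows of the cholesterol list and 0 of 13 of the fatty acid list, against 1.24% of all windows.

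Cholesterol efflux genes, targets of the sterol receptor LXR, were split, with 4 of 8 higher and 3 lower. Apoe was at 6.97, 5.57 and 7.63 FPKM with CLK8, 22.6, 28.1 and 23.4 with SB431542 and 9.70 to 12.4 with vehicle, a difference of -1.74 ± 0.115 (adjusted p = 7.03e-11). The neighbouring apolipoprotein gene Apoc1 (-1.25 ± 0.178) and the efflux pump Abca1 (-0.58 ± 0.085) were lower too. Neither differed from vehicle with CLK8 beyond the test (-0.30 and 0.04, adjusted p = 0.187 and 0.737), and SB431542 was above vehicle for both (0.95 and 0.62). Npc1, which exports cholesterol from lysosomes, was higher (0.51 ± 0.040, overlapping Rmc1).

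Some genes of glycolysis and of the hypoxia response were lower with CLK8, and replicate 2 was high in both groups for those described here. Ldha, which makes lactate, was at 657, 925 and 670 FPKM with CLK8 and 1090, 1470 and 1199 with SB431542, and Egln3, an oxygen-sensing hydroxylase, at 7.87, 16.4 and 7.59 against 16.5, 29.3 and 16.6. Replicate 2 was the highest library of each group for both genes and for Egln3 CLK8 replicate 2 lay just below the lowest SB431542 library. The differences were -0.75 ± 0.121 for Ldha (adjusted p = 4.72e-05) and -0.94 ± 0.253 for Egln3 (adjusted p = 0.00742), and Egln3 was not called without SB431542 replicate 2 (adjusted p = 0.0535) or with the spread of the compared groups alone (adjusted p = 0.138). Car9, a carbonic anhydrase, was at 4.66, 8.68 and 5.32 FPKM against 11.9, 21.2 and 15.1 (-1.25 ± 0.177, adjusted p = 1.40e-05).

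Of 19 glycolysis genes 0 were higher and 10 lower (median -0.32). Without CLK8 replicate 1, CLK8 replicate 3 or SB431542 replicate 2, 6 were lower, and 3 were with the spread of the compared groups alone. Of 15 hypoxia genes 1 was higher, the angiogenic factor Vegfa (0.48 ± 0.085), and 5 lower. That count was 12 without CLK8 replicate 2, 9 without SB431542 replicate 1, 3 without CLK8 replicate 3 and 2 without SB431542 replicate 2. Respiratory chain genes, 26 tested, were higher in 7 cases, such as Sdhb (0.29) and Cox5a (0.25), and lower in 2, and 4 were higher without SB431542 replicate 2. Its shares of 26.9% and 7.7% lie near the 20.6% and 13.4% over all genes.

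Inflammatory genes and chemokines, 21 tested, were higher in 5 cases (23.8%, near the 20.6% over all genes) and lower in 9 (42.9%, against 13.4%). Besides Ptgs2, the alarmin gene Il33 was higher, at 20.9, 22.1 and 19.8 FPKM with CLK8 against 9.84, 8.85 and 9.65 (1.07 ± 0.103, adjusted p = 2.45e-08). Cxcl10, a chemokine for T cells, was at 65.0, 65.4 and 56.5 FPKM with CLK8, 114, 138 and 132 with SB431542 and 156, 246 and 163 with vehicle (-1.03 ± 0.168, adjusted p = 8.71e-05), and the macrophage growth factor Csf1 at 56.1 to 60.6, 92.6 to 101.2 and 118 to 121 (-0.69 ± 0.058). For both, the groups were ordered without overlap and CLK8 was lowest. Of 28 interferon response and MHC class I genes 2 were higher, Nlrc5 (0.40) and H2-D1 (0.26), and 3 lower, Rsad2 (-0.68) among them. These shares, 7.1% and 10.7%, were below those over all genes. H2-D1 was not called without CLK8 replicate 1 or 3 or SB431542 replicate 1 or 3 (adjusted p = 0.0504 to 0.15).

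Of 27 genes of growth factor and receptor signalling 5 were higher (18.5%, near the 20.6% over all genes) and 11 lower (40.7%, against 13.4%). Fgf7, a factor for epithelial cells, was at 12.6, 11.2 and 12.6 FPKM against 6.72, 4.85 and 5.01 (1.02 ± 0.103, adjusted p = 5.68e-08). Igf1 was at 2.05, 2.64 and 2.23 FPKM against 7.20, 9.92 and 9.29 (-1.56 ± 0.095, adjusted p = 1.57e-11), and Igfbp7, which overlaps Polr2b, at 13.1, 9.33 and 11.4 against 31.2, 43.2 and 31.8 (-1.57 ± 0.121). Neither overlapped between the groups. Proliferation genes, 32 tested, were lower in 10 cases (31.2%, against 13.4% of all genes) and higher in 3 (9.4%, against 20.6%). Differences were small for mitotic genes such as Ccnb1 (-0.32 ± 0.035) and Bub1b (-0.36 ± 0.037). The G1 cyclin Ccnd1 had a larger one, at 7.49, 4.35 and 6.02 FPKM against 20.2, 10.98 and 13.2 (-1.17 ± 0.187, adjusted p = 6.01e-05). Of 16 p53 targets 5 were higher (31.2%), with Gadd45a (0.76) and Cdkn1a (0.55) first, and 1 lower (6.2%), Sesn1 (-0.41). The immediate early list had 4 of 18 higher and 4 lower (22.2% each), with Klf2 at -0.94 and Klf4 at 0.44. The YAP-TEAD list had 3 of 14 higher (21.4%) and 5 lower (35.7%), with Ankrd1 at -0.81. For both lists the higher share lay near the 20.6% over all genes.

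Under TGFb the same pair of compounds differed at more genes, 6205 of 11297 (54.9%), with 2888 higher with CLK8 (25.6%) and 3317 lower (29.4%), of which 211 (1.87%) and 262 (2.32%) were at least 2-fold. After division by each library's sum the split was 3744 to 2495. The difference between the compounds was itself not the same with and without TGFb for 3131 genes (27.7%). It was more positive with TGFb for 1065 (9.43%) and more negative for 2066 (18.3%), or 1496 and 1273 after that division. As the labels do not say if groups without TGFb had the later 24 h, TGFb and time under compound cannot be told apart. The change was at least 2-fold for 149 (1.32%) and 122 (1.08%). Of 20 TGFb-SMAD genes 18 were higher with CLK8+TGFb than with SB431542+TGFb and 0 lower. Pmepa1 was at 105, 104 and 105 FPKM with CLK8+TGFb, 4.34, 3.70 and 3.73 with SB431542+TGFb and 69.6 to 74.8 with TGFb alone, so that its difference of 0.91 without TGFb became 4.43 (change 3.52 ± 0.089, adjusted p = 1.48e-18). Postn, a matricellular protein, reversed, from -0.50 to 2.99, and Mfap4, a microfibril protein at or below 0.12 FPKM with either compound alone, differed by 3.54 with TGFb.

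For several genes a large difference without TGFb was gone, smaller or greater with it. Prg4 was at 6.85, 8.21 and 10.1 FPKM with CLK8+TGFb and 4.78, 7.53 and 7.96 with SB431542+TGFb, overlapping groups whose difference of 0.29 was not called (standard error 0.179, adjusted p = 0.187). CLK8+TGFb was the higher library in each of the 3 same-numbered pairs, and the fit with the replicate block gave 0.29 ± 0.137 (adjusted p = 0.0837). Slpi went from 2.26 to 0.34 and was still called (limma adjusted p = 0.0282). Acta2 and Tagln, lower with CLK8 without TGFb, differed by -0.06 and 0.05 with it (adjusted p = 0.746 and 0.809), and the change was called for both (1.16 and 1.67). Vcan, at 60.3 to 65.2 FPKM against 2.17 to 2.90, went from 2.57 to 4.24, Upk3b from -2.52 to -3.58, Id2 from -0.93 to -3.38 and Aqp1 from -2.11 to -4.53. Nfil3 differed by 0.77 with TGFb and 0.62 without it, and the change was not called (0.14, adjusted p = 0.233), whereas Arntl went from 0.30 to 1.03 and Dbp from -0.34 to -1.49.

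**Figure D5:**
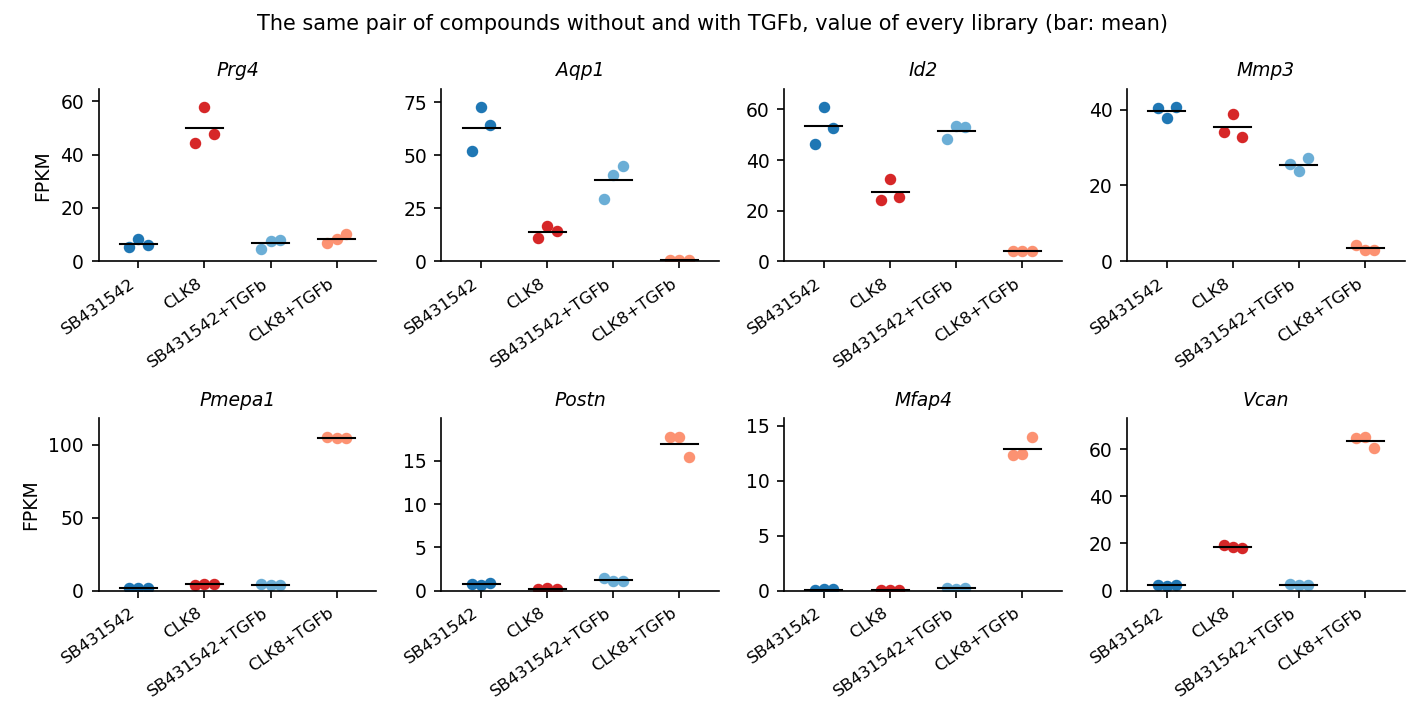
FPKM (y axis, linear from 0) of 8 genes in each of the 3 libraries with SB431542, CLK8, SB431542+TGFb and CLK8+TGFb (x axis), with a bar at each mean. Prg4 is high with CLK8 alone, Aqp1, Id2 and Mmp3 are lowest with CLK8+TGFb, and Pmepa1, Postn, Mfap4 and Vcan are highest with CLK8+TGFb.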

How the data were processed

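Total RNA of EMS404 cells was purified with either of 2 kits depending on yield and libraries were built at BGI, per the labels' protocols. The sources used here give neither the kit of each sample nor strandedness. HISAT2 2.0.4, Bowtie2 2.2.5, RSEM, DESeq2 and mm10 are named in the submitters' processing notes. Values are the authors' FPKM, deposited with 2 decimals in a table of 16620 lines and 24 libraries. The 8 identifiers on 2 lines each were left out, leaving 16604 genes. GENCODE M21 supplied symbols and positions (GRCm38), and RefSeq the promoters.

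A gene was tested if its FPKM reached 1 in 3 or more of the 24 libraries, which 11297 did. The model was limma (version 3.58.1, R 4.3.3) on log2(FPKM + 1), moderated robustly with a trend, over all 8 groups (16 residual degrees of freedom), with two-sided p-values adjusted by Benjamini-Hochberg and a threshold of 0.05. The fit was tested on simulated data. The submitters call the samples biological triplicates and say nothing further, so p-values measure the spread between these samples.

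The comparison, the 32 pathway lists, the 8 marker lists and the naming rule were chosen with earlier results of these data known. Named genes are the 14 largest called rises and falls without overlap, up to 4 called members of each list, a set of clock and TGFb genes, and the 5 largest called changes each way with TGFb. A few genes picked this way are not reported here. Other members of short counts were named after their values were seen. Residuals of same-numbered libraries correlated over 0.1 in every pair for CLK8+TGFb with SB431542+TGFb (0.275, 0.137 and 0.129), which counts as paired, and not for CLK8 with SB431542. Alternatives were the pseudocount, the filter, division by the library sum with scaling to a common total, quantile normalisation, the groups in the model, a replicate block and leaving out each library.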

Additional observations from a re-analysis of the deposited data

Results flagged for a closer look

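For 3131 genes the difference between CLK8 and SB431542 was itself different with TGFb than without it, by the interaction term of the limma model at an adjusted p under 0.05. The 5 with the most positive change, in log2(FPKM + 1), were Ctsw (3.85), Mfap4 (3.59), Pmepa1 (3.52), Postn (3.49) and Crispld2 (3.29). With either compound alone Ctsw, Mfap4 and Crispld2 did not exceed 0.30 FPKM in any library. With CLK8+TGFb they were at 15.9 to 18.8, 12.33 to 14.02 and 9.95 to 10.3 FPKM, and with SB431542+TGFb at 0.03 to 0.18, 0.17 to 0.22 and 0.15 to 0.19. Among the groups compared, these genes reached the 1 FPKM of the filter only with CLK8+TGFb. Their change is thus the level of that group over very low values. Ctsw overlaps Fibp and Mfap4 overlaps Mapk7.

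The 5 with the most negative change were Prg4 (-2.46), Id2 (-2.45), Mmp3 (-2.44), Aqp1 (-2.42) and Hp (-2.32). Mmp3, a stromelysin, was at 32.9 to 38.9 FPKM with CLK8 and 37.8 to 40.5 with SB431542, and at 2.87 to 4.37 with CLK8+TGFb and 23.8 to 27.2 with SB431542+TGFb. Hp, which encodes haptoglobin, was at 15.9 to 20.0 and 13.99 to 17.8 FPKM without TGFb and at 2.76 to 2.94 and 15.95 to 17.8 with it. Both genes overlapped between the compounds without TGFb and were apart with it. What underlies these changes was not tested, and time under compound may also differ between the groups with and without TGFb.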

How the results depend on the processing

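Of 152 called genes among those chosen by the naming rule, 138 stayed called in every alternative that tested them, 14 lost the call in at least 1 and none reversed. Many were chosen for a large difference or small limma adjusted p in these same libraries, which favours keeping the call. Over all genes 3318 were called with the spread of the compared groups alone and 4350 without the SR9011 groups, against 3846 in the main fit. The alternative filter, an FPKM of at least 5, leaves out low genes, so not every gene was tested in every alternative. Leaving out each of the 6 compound libraries in turn gave 1784 to 2374 genes higher with CLK8 and 1245 to 1380 lower. Same-numbered libraries of CLK8 and SB431542 did not deviate together in all pairs (residual correlations 0.273, 0.190 and -0.243), so they were not counted as paired. With 3 libraries in each group these values cannot exclude a pairing. The fit with the replicate number as a block gave 2434 genes higher and 1587 lower. For the pair with TGFb the block changed no call of a gene described with TGFb. Counts past 2-fold depended on the pseudocount, since a smaller one enlarges the difference of low genes. With a pseudocount of 0.1 they were 89 higher and 144 lower for CLK8 against SB431542, 130 and 161 for CLK8 against vehicle, 41 and 27 for SB431542 against vehicle, 423 lower for the pair with TGFb and 242 lower for the change with TGFb. For SB431542 against vehicle they were 22 and 15 with a pseudocount of 0.5, 20 and 15 after division by the library sum, and 14 lower with quantile normalisation, which also called 862 genes lower. Division by the library sum called 1273 genes lower for the change with TGFb. That division also brought every library to a common total above its FPKM sum, so the pseudocount was smaller relative to the values. The part of this in the counts was not tested, nor was the cause for quantile normalisation. Read depth is unknown, so no counting error can be attached to genes near 0 FPKM.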
